A study of Homo sapiens with 18 samples.

Results

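The NRF2 and antioxidant defence genes were examined as a module of 35 genes, chosen by gene name. Of these, 34 were found by Ensembl identifier among the 16575 genes of the CAGE-seq table, and all 34 passed the filter of at least 5 CPM in at least 1 library, as did 13022 genes in all. AKR1B10 passed through a single library. SOD2 is not analysed here, because the identifier that the gene name table gives it has no row among these genes. CAGE-seq sequences the capped 5′ ends of RNA, so a CPM value, a count scaled to the size of its library, is the relative number of transcripts of a gene that were read from their start.

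NRF2, encoded by NFE2L2, is a transcription factor that is kept low by KEAP1, an adaptor that hands it to a ubiquitin ligase. Under oxidative or electrophilic stress KEAP1 releases NRF2, which binds antioxidant response elements together with small MAF proteins and raises genes for glutathione synthesis, thioredoxin recycling, NADPH supply, quinone and carbonyl reduction and iron storage. Not every member of the module depends on NRF2, since peroxiredoxins, superoxide dismutase and several glutathione peroxidases also have other regulators.

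The tumour suppressor WWOX and the transcription factors AP-2α and AP-2γ were introduced into 3 human lines of bladder carcinoma, HT-1376, CAL-29 and RT-112. All cells underwent a pair of stable lentiviral transductions with CMV-driven constructs. The first carried WWOX (W) or a blank control (K) and was selected with puromycin, and the second carried AP-2α (A), AP-2γ (C) or a blank control (K) and was selected with G418. The 6 variants were therefore KK, KA, KC, WK, WA and WC, with 1 library of each per cell line and 18 libraries in all. KK, KA and KC are called the control arm and WK, WA and WC the WWOX arm. Within a line the WWOX arm derives from 1 first transduction, so WWOX and the cells selected in that transduction cannot be told apart. P-values within a line measure the spread over second transductions only, and limma pools that spread over the lines. RT-112 was grown in RPMI-1640 and the other lines in DMEM, so line and medium cannot be told apart. In these bulk samples fewer cells with a transcript and less of it per cell cannot be told apart either.

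Each library held 13357102 to 17958572 reads on genes, and 3 reads, the most that a count of 0 allows, were worth 0.158 to 0.213 CPM. The library labelled CAL-29 KC correlated with HT-1376 libraries (median r = 0.94 over genes) and less so with the other CAL-29 libraries (median r = 0.741). It is shown apart, and fits over lines used the other 17 libraries unless stated. WWOX CPM was not higher in the WWOX arm of RT-112 (18.5 to 22.3 against 23.5 to 26.0) and overlapped in HT-1376 (18.6 to 23.1 against 16.95 to 24.7). In CAL-29 it was 62.4 to 155 in the WWOX arm, against 51.3 and 63.7 in the control arm. TFAP2A, which encodes AP-2α, was above KK in KA of each line (1.41 to 2.6 times), yet in HT-1376 it was 69.9 CPM in WA and 76.9 CPM in WK. TFAP2C, which encodes AP-2γ, was above the blank control in the C libraries of both arms of RT-112 and HT-1376 and in WC of CAL-29 (1.35 to 4.55 times), and in RT-112 it was also 180 CPM in WA against 56.2 CPM in WK. A transcript that starts in a vector need not be counted at the native gene, so this check covers the native start sites only. Epithelial markers were present in every line, whereas FOXA1 was at most 0.14 CPM in HT-1376, and KRT20 and UPK3A were at most 0.37 CPM in RT-112 and HT-1376.

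The question of whether WWOX moved the module was asked within each line. In HT-1376 the WWOX arm had more AKR1C1, AKR1C2, AKR1C3, GPX2, TXN, SRXN1 and GPX1, and less TXNRD1, PRDX3 and PRDX6. In limma, 10 of 34 members were called at an adjusted p below 0.05, of which 7 were higher and 3 lower, whereas 9.75% of all genes were called (4.7% higher and 5.05% lower). In CAL-29 the differences mostly ran the other way. SRXN1 alone was called, as lower, in a background of 0.73%, and 27 of 34 members were below 0, with a median of −0.48 on the log2 scale against 0.10 for all genes. In RT-112 no member was called by limma, limma-voom, edgeR or DESeq2 (0% of all genes in limma), although PRDX1, SOD1 and GPX3 had an unadjusted p below 0.05, all as lower values, where 7.84% of all genes did.

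The aldo-keto reductases AKR1C1, AKR1C2 and AKR1C3, which reduce steroids, ketones and lipid aldehydes with NADPH, had the largest differences of the module in HT-1376. Their genes lie side by side on chromosome 10 (hg38, GENCODE 44), AKR1C1 at 4963253 to 4983283, AKR1C2 at 4987775 to 5018031 and AKR1C3 at 5035354 to 5107686. AKR1C2 in HT-1376 was 2.17 CPM in KK, 6.81 in KA and 10.0 in KC, against 234 in WK, 149 in WA and 166 in WC. No library of the WWOX arm came near the control arm, and the log2(CPM + 0.5) difference was 4.93 ± 0.47 (SE, adjusted p = 0.00149 in limma). AKR1C1 went from 0.85, 4.71 and 9.93 CPM to 63.3, 49.6 and 38.2 CPM, a difference of 3.57 ± 0.59 (adjusted p = 0.00915 in limma). AKR1C3 went from 0.92, 1.76 and 4.25 CPM to 15.3, 21.7 and 8.93 CPM, a difference of 2.59 ± 0.55 (adjusted p = 0.0235 in limma). Each of these genes was higher in all 3 pairs of libraries with the same second transduction. The control arm was not uniform, since KK was the lowest library for each of the 3 genes.

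In CAL-29 the values of these genes in the WWOX arm lay below those of the control arm. AKR1C1 was 148 CPM in KK and 199 in KA, against 43.5 in WK, 62.7 in WA and 32.2 in WC. AKR1C2 was 219 and 113 CPM against 73.8, 98.02 and 45.6 CPM, and AKR1C3 was 111.6 and 41.1 CPM against 20, 35.7 and 5.17 CPM. The arms did not overlap for any of the 3 genes in CAL-29, yet none passed the adjusted threshold there. With KC shown apart, the CAL-29 estimate rests on the pairs WK/KK and WA/KA alone. In RT-112 AKR1C2 was 126, 136 and 120 CPM in the control arm and 88.1, 125 and 39.4 in the WWOX arm, and the arms overlapped. Those of AKR1C3 overlapped there too, whereas AKR1C1 was 71.9 to 83.1 CPM against 19.8 to 63.7 CPM without overlap, lower in all 3 pairs and not called in limma.

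AKR1C1 and AKR1C2 are close copies, and reads that the counting could place on either leave their split uncertain. CAGE reads begin at a start and run downstream, so the windows around the starts were compared. In RefSeq (GRCh38.p14), the windows from 250 bases before to 50 bases after the start matched at 264 of 296 positions when shifted by 4 bases, and at 245 of the 246 positions before the starts. The differing positions thus lay mostly after the starts, in a comparison without gaps, where a gap would be counted as differing positions. In each gene 162 of the 246 bases before the start lie in annotated exons, so reads that begin there cover nearly the same letters in both. CAGE reads do not cover bases upstream of the exons, and whether reads of these genes were shared was not tested. The 84 bases farthest upstream, which lie in no annotated exon of either gene, had the same letters in both and are printed for AKR1C1 (chr10:4963169-4963252, plus strand):
AKR1C1 and AKR1C2: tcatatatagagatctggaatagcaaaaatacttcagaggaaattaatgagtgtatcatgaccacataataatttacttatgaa
The sum of AKR1C1, AKR1C2 and AKR1C3, which a split among them cannot change, was 3.94, 13.3 and 24.2 CPM in the HT-1376 control arm and 313, 220 and 213 CPM in its WWOX arm.

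GPX2, a glutathione peroxidase of epithelia that reduces hydroperoxides, was near the counting floor in the HT-1376 control arm, with 0.33 CPM in KK, 0.45 in KA and 0.50 in KC. In the WWOX arm it reached 7.51 CPM (WK), 5.30 CPM (WA) and 3.34 CPM (WC), a difference of 2.61 ± 0.25 (adjusted p = 0.00149 in limma). These levels stayed far below those of RT-112 (608 to 825 CPM) and CAL-29 (333 to 594 CPM). Of 10 genes with at least 20 CPM in every RT-112 and CAL-29 library and at most 1 CPM in the HT-1376 control arm, 2 had a WWOX-arm mean above 1 CPM, GPX2 and ACKR3. The median of the 10 means was 0.16 CPM. The RefSeq promoter of GPX2 is shown because it holds a core of the antioxidant response element, TGACNNNGC, in capitals as its reverse complement (chr14:64942746-64942995, GRCh38.p14, minus strand, 250 bases before the start):
GPX2: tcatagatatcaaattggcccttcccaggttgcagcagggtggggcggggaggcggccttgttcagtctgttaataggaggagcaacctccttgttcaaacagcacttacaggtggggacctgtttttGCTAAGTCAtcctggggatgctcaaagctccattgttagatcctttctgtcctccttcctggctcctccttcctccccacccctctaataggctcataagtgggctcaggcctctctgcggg

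**Figure D1:**
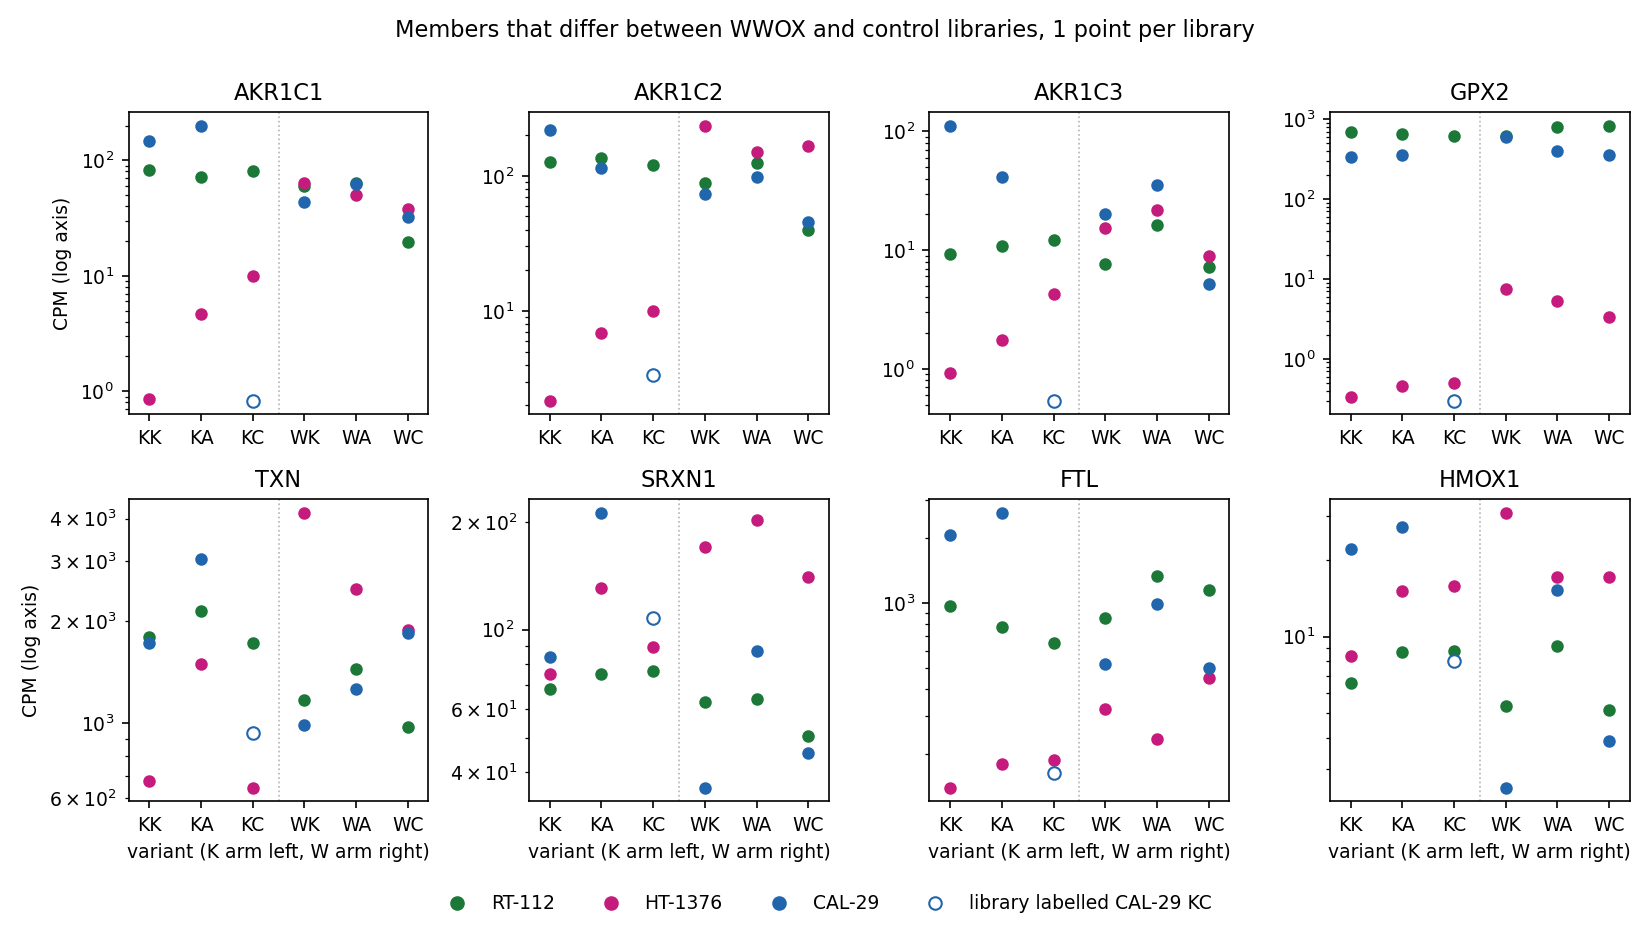
CPM (log axis) of 8 members in each of the 18 libraries, with the control arm left and the WWOX arm right of the dotted line. Points are single libraries coloured by cell line, the open point is the library labelled CAL-29 KC, and AKR1C2 in HT-1376 rises from at most 10.0 CPM to at least 149 CPM.

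The thioredoxin genes split in HT-1376. TXN, the thioredoxin that reduces protein disulfides, was 677, 1498 and 645 CPM in the control arm and 4163, 2483 and 1884 CPM in the WWOX arm (difference 1.63 ± 0.32, adjusted p = 0.0174 in limma). SRXN1, sulfiredoxin, which repairs overoxidised peroxiredoxins, was 75.4, 131 and 89.5 CPM against 171, 203 and 140 CPM (0.82 ± 0.17, adjusted p = 0.0221 in limma). TXNRD1, the reductase that recycles thioredoxin, went down, from 38.7, 70.6 and 36.5 CPM to 16.97, 30.0 and 11.7 CPM (−1.33 ± 0.36, adjusted p = 0.0497 in limma). In CAL-29, SRXN1 was 83.9 CPM in KK and 212 in KA against 36.2 in WK, 87.0 in WA and 45.3 in WC (−1.24 ± 0.21, adjusted p = 0.0416 in limma). The CAL-29 arms overlapped, because KK and WA were alike, and each WWOX library was below its own partner.

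Of the peroxiredoxins, which reduce peroxides with a reactive cysteine, the mitochondrial PRDX3 and the cytosolic PRDX6 fell in HT-1376. PRDX3 was 26.4, 37.5 and 32.6 CPM in the control arm and 13.5, 19.8 and 8.55 CPM in the WWOX arm (−1.24 ± 0.33, adjusted p = 0.0465 in limma). PRDX6 was 306, 295 and 323 CPM against 106, 209 and 125 CPM (−1.13 ± 0.25, adjusted p = 0.0282 in limma). The other 4 peroxiredoxins were not called in any line. GPX1, the widespread glutathione peroxidase, was 269, 278 and 371 CPM against 597, 393 and 552 CPM in HT-1376 (0.74 ± 0.19, adjusted p = 0.0421 in limma).

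The ferritin chains FTH1 and FTL, which store iron, had positive differences in HT-1376 and negative ones in CAL-29. FTL was 139, 180 and 188 CPM in the HT-1376 control arm and 321, 234 and 448 CPM in its WWOX arm (0.94 ± 0.26, adjusted p = 0.0545 in limma). In CAL-29 it was 2074 CPM in KK and 2613 in KA against 522 in WK, 994 in WA and 497 in WC (−1.69 ± 0.32, adjusted p = 0.0578 in limma). Neither was called in the main limma fit. FTL in HT-1376 was called with limma-voom (adjusted p = 0.0359), with TMM scaling (0.0415 in limma) and with DESeq2 (0.0019), and FTL in CAL-29 with DESeq2 (0.000249) and in limma without the filter (0.0493). FTH1 was 1396 to 1550 CPM against 2224 to 2796 CPM in HT-1376 and 5433 and 6163 CPM against 2528 to 4574 CPM in CAL-29, with adjusted p = 0.0771 and 0.296 in limma, and DESeq2 called it in HT-1376 (adjusted p = 0.00203). Both chains have many processed copies in the genome, so their counts are uncertain.

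HMOX1, which breaks down haem, was 8.35, 15.2 and 15.9 CPM in the HT-1376 control arm and 30.7, 17.1 and 17.2 CPM in the WWOX arm (adjusted p = 0.335 in limma). In CAL-29 it was 22.1 and 27.0 CPM against 2.54, 15.2 and 3.88 CPM (−1.85 ± 0.55, adjusted p = 0.193 in limma). NQO1, the quinone reductase most often read as a gauge of NRF2, was 239, 279 and 290 CPM against 370, 424 and 256 CPM in HT-1376 (0.35 ± 0.23, adjusted p = 0.361 in limma). In CAL-29 it was 326 and 337 CPM against 146, 207 and 162 CPM (−0.93 ± 0.29, adjusted p = 0.215 in limma). OSGIN1, a stress-induced growth inhibitor, was 3.49 to 7.38 CPM against 9.14 to 17.6 CPM in HT-1376 and 24.3 and 23.0 CPM against 3.59 to 9.76 CPM in CAL-29. None of these differences passed the threshold in limma, whereas DESeq2 called OSGIN1 in HT-1376 (1.64, adjusted p = 0.0112) and HMOX1 and OSGIN1 in CAL-29 (−2.08 and −2.13, adjusted p = 0.00691 and 0.0263). By the values alone, the arms of HMOX1 and OSGIN1 did not overlap in either of these lines and those of NQO1 did not overlap in CAL-29.

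The regulators themselves did not pass the test in the main limma fit. NFE2L2 was 16.1, 25.6 and 21.5 CPM in the HT-1376 control arm and 11.8, 15.7 and 13.5 CPM in its WWOX arm, a difference of −0.59 ± 0.35 (adjusted p = 0.299 in limma) opposite in sign to most members there. By the values alone its HT-1376 arms did not overlap, as lower, where 22.8% of all genes did so. It was called in limma without all CAL-29 libraries (adjusted p = 0.0426, 26.4% of all genes), an alternative chosen after seeing the data. In CAL-29 it varied between 22.1 and 83.8 CPM, lowest in KA and WC, with a difference of 0.64 ± 0.42 (adjusted p = 0.593). KEAP1 was 44.2 to 54.2 CPM in HT-1376 and 32.2 to 41.1 CPM in CAL-29, and its WWOX difference was between −0.09 and 0.17 in the 3 lines. GCLC and GCLM, the catalytic and modifier subunits of the enzyme that starts glutathione synthesis, had differences of 0.19 ± 0.43 and 0.56 ± 0.27 in HT-1376 and of −0.05 ± 0.52 and −0.79 ± 0.33 in CAL-29, none of which was called in limma. DESeq2 called GCLM in HT-1376 (0.81, adjusted p = 0.0381).

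**Figure D2:**
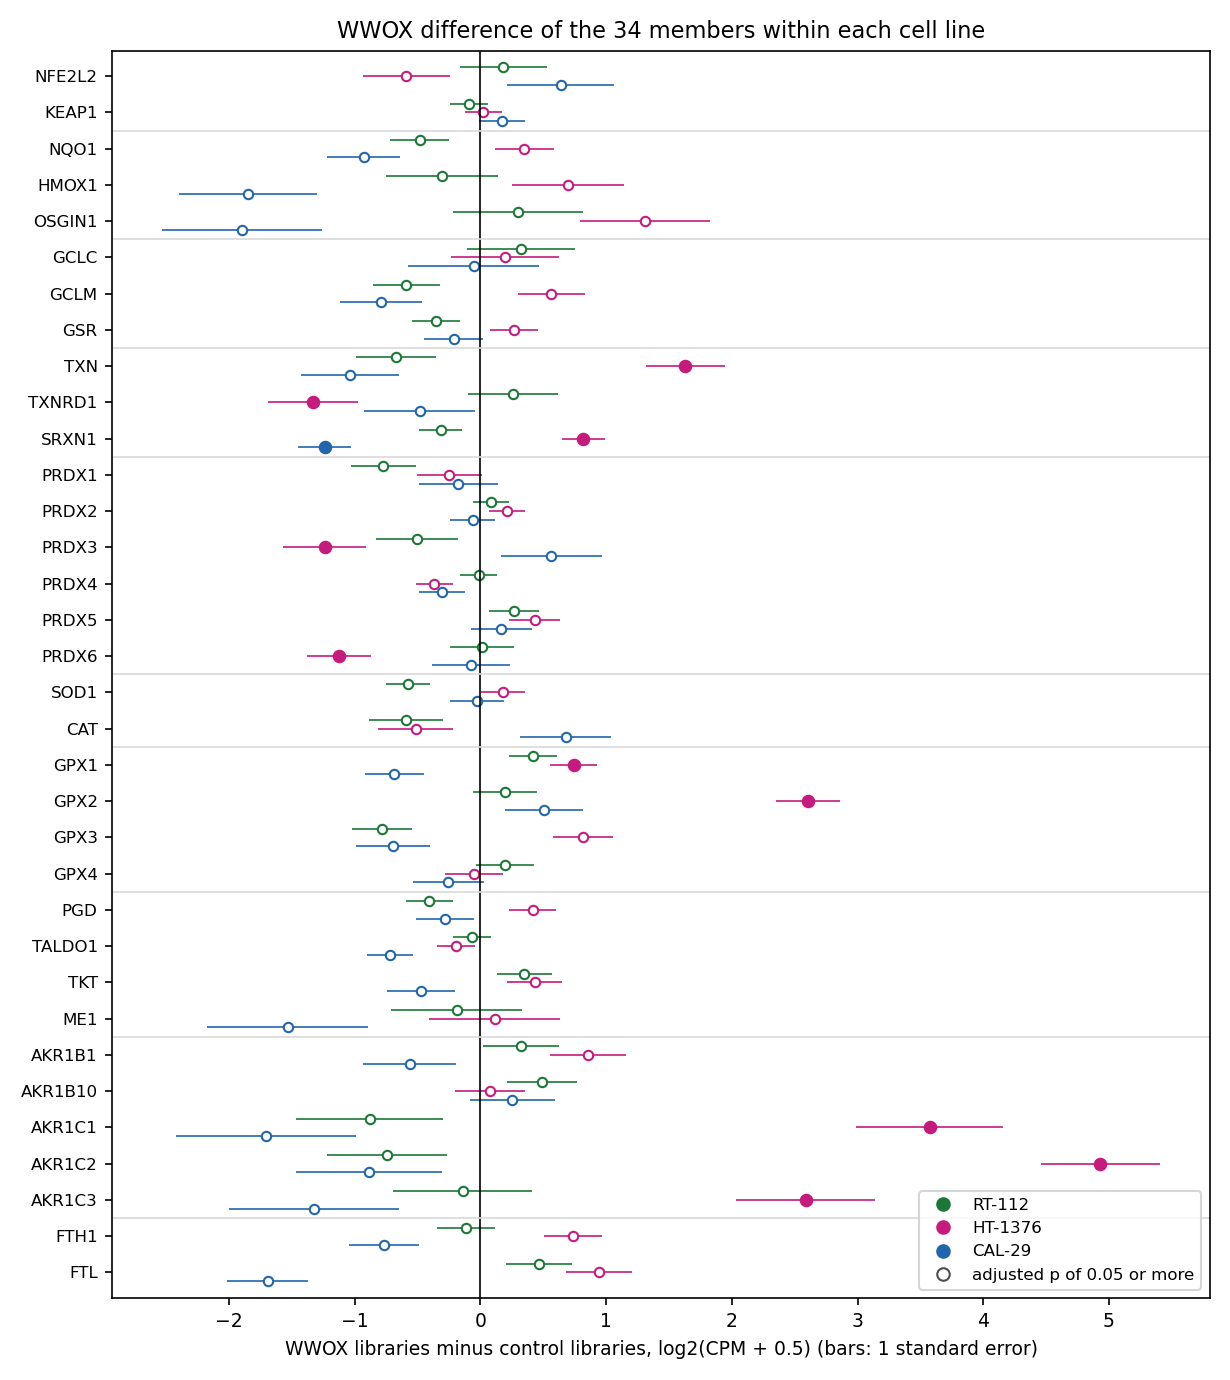
WWOX arm minus control arm of the 34 members in log2(CPM + 0.5), by role, with bars of 1 standard error from limma and filled points for an adjusted p below 0.05. HT-1376 points lie above 0 for 25 members and CAL-29 points below 0 for 27.

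By the values alone, the arms of HT-1376 did not overlap for 13 members as higher (12.8% of all genes) and 6 as lower (22.8%). In CAL-29 this held for 3 as higher (9%) and 12 as lower (9.8%), and in RT-112 for 2 as higher (9.48%) and 11 as lower (11.5%). The 3 in CAL-29 included AKR1B10, which passed the filter only through the WC library of that arm, so its place there is tied to the filter. The 12 in CAL-29 included the 3 AKR1C genes, both ferritin chains, NQO1, HMOX1, OSGIN1, GCLM, GPX1, PGD and TALDO1.

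The difference between lines was itself tested in limma. The WWOX difference varied among the 3 lines for 6 of 34 members, AKR1C2 (adjusted p = 0.0128), SRXN1 (0.0198), GPX2 (0.0243), FTL (0.0314), AKR1C1 (0.0323) and TXN (0.0368), whereas 2.9% of all genes were called. By sign, 21 of 34 members (61.8%) were higher in HT-1376 and lower in CAL-29, and 19.5% of all genes were. With TMM scaling (the trimmed mean of M-values, which aligns libraries on the bulk of their genes), 26 members were higher in HT-1376 and 27 lower in CAL-29. Once the library labelled CAL-29 KC was added back, no member was called for the difference between lines (0.0538% of all genes) and 1, AKR1C2, in HT-1376 (1.08%). Leaving out all libraries of any 1 second transduction left 0 members for the difference between lines (0% to 0.108% of all genes) and 3 to 4 in HT-1376 (3.13% to 3.96%), where GPX2 and AKR1C2 were called each time, TXNRD1 without the K transductions, TXN without the A transductions and AKR1C1 and AKR1C3 without the C transductions. In CAL-29 SRXN1 was not called when any 1 of them was left out, and ME1 was called without the A transductions (−3.19, adjusted p = 0.0455 in limma), a value of the single pair WK and KK with its spread taken from the other groups.

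Some cell type markers also differed between the arms of HT-1376. Of the 17 cell type markers in the table, 8 did not overlap between its arms. KRT19, CD68, COL1A1 and COL1A2 were higher, as were 12.8% of all genes. KRT8, KRT18, GATA3 and CDH5 were lower, near the share of all genes (22.8%). The summed epithelial markers (5 genes) were 5273 to 6101 CPM in the control arm and 3863 to 4519 CPM in the WWOX arm. The summed fibroblast collagens were 3.8 to 12.6 CPM against 36.3 to 59.3 CPM, CD68, the only leukocyte marker in the table, 1.7 to 2.4 CPM against 6.1 to 14.7 CPM, and the endothelial CDH5 2.1 to 4.1 CPM against 0.2 to 0.7 CPM. The summed urothelial markers (8 genes) were 531.6 to 1211 CPM against 355.3 to 504.3 CPM. In CAL-29 the epithelial sum was 4190 and 4975 CPM against 5599 to 7160 CPM and the urothelial sum 311.2 and 339 CPM against 611.2 to 1200.4 CPM. There 4 of 17 markers did not overlap, 3 as higher (9% of all genes) and 1 as lower (9.8%). Their part in the results was not tested.

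Beyond the module, 40 other genes of glutathione, thioredoxin, NADPH and reductase metabolism were tested, of which 4 were called for WWOX in HT-1376, where 9.75% of all genes were. SELENOW, a selenoprotein, and CBR3, a carbonyl reductase, were higher (0.95 ± 0.24 and 1.56 ± 0.34), and the mitochondrial NADPH producers IDH2 and ME2 were lower (−0.91 ± 0.17 and −1.75 ± 0.45), with adjusted p between 0.0142 and 0.0436 in limma. None of the 40 was called in CAL-29 or RT-112 or for the difference between lines in limma, where 0.73%, 0% and 2.9% of all genes were. At an unadjusted p below 0.05 there were 7, 6 and 16 of them, against 12.8%, 7.84% and 22.9% of all genes.

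Each of the other 5 variants was then compared with KK over the 3 lines. No member was called in any of these comparisons, and 0% of all genes were (limma, 18 libraries, n = 3 per variant). No member had an unadjusted p below 0.05 in these fits, a level that 0.292% of all genes reached for WK, 0.0538% for KA, 0.0845% for KC, 0.284% for WA and 0.645% for WC, and limma-voom, edgeR and DESeq2 called none either. With the cell line as a block again none was called. The mean change over the 34 members was 0.10 for KA, −0.03 for WK, 0.25 for WA and −0.12 for WC. It was −0.31 for KC with the library labelled CAL-29 KC and 0.21 over RT-112 and HT-1376 alone. These means cover unlike lines, since WK against KK was 0.90 in HT-1376, −0.17 in RT-112 and −0.81 in CAL-29, with all-gene medians of −0.15, 0.03 and −0.15.

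Single libraries were compared with the KK of their line without a test, there being 1 library each. In RT-112 few members moved by more than 1 on the log2 scale, and few of all genes did. CAT was up by 1.18 in KC, where 1.91% of all genes were up by more than 1. TXNRD1 and OSGIN1 were up by 1.27 and 1.98 in WA, where 3.51% were. AKR1C1 and AKR1C2 were down, at −2.04 and −1.66, in WC, where 3.69% were down by more than 1. In HT-1376 TXN and AKR1C2 were up by 1.15 and 1.45 in KA, and AKR1B1, AKR1C2 and AKR1C1 by 1.21, 1.98 and 2.95 in KC. Of all genes, 5.17% in KA and 7.55% in KC were up by more than 1. The WWOX libraries of HT-1376 had 12 members up by more than 1 in WK, 8 in WA and 9 in WC, where 8.15%, 8.98% and 9.08% of all genes were. AKR1C1, AKR1C2, AKR1C3, TXN, GPX2 and OSGIN1 were among them each time, with GCLM, SRXN1, AKR1B1, GPX1, HMOX1 or FTL in some. The changes below −1 with at least 5 CPM were PRDX6 and TXNRD1 in WK and PRDX1, PRDX3, PRDX6, TXNRD1 and CAT in WC. Of all genes, 14% in WK and 10.6% in WC were below −1.

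In CAL-29 KA had NFE2L2, PRDX3, GCLC and AKR1C3 down by more than 1 and SRXN1 up by 1.33, where 22% of all genes were down. WK had 13 members down (16.2% of all genes), WA had 5 (2.6%) and WC had 13 (32.2%). AKR1C1, AKR1C2, AKR1C3, OSGIN1 and FTL were down by more than 1 in all 3 libraries, with AKR1C3 from −1.63 in WA to −4.30 in WC. HMOX1, ME1, TXNRD1, GCLC, GCLM and NQO1 were down in WK and WC, SRXN1 and FTH1 in WK, and NFE2L2 and PRDX3 in WC. AKR1B10, a reductase of retinal and lipid aldehydes, was up by 2.81 in WC, from 0.78 to 8.49 CPM, and WC is the library through which it passed the filter.

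**Figure D3:**
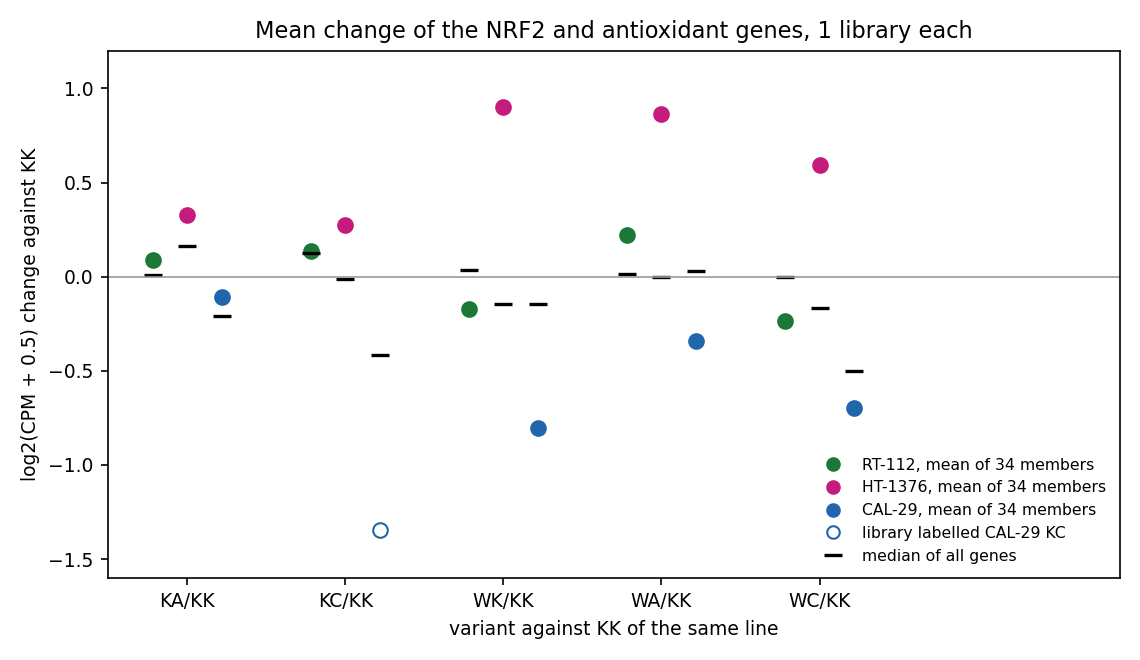
Mean log2(CPM + 0.5) change of the 34 members against KK of the same line, with 1 point per library and short black bars for the median of all genes. The 3 WWOX libraries of HT-1376 lie at 0.59 to 0.90 and those of CAL-29 at −0.81 to −0.34.

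AP-2 moved no member past the threshold. Over both first transductions, AP-2α gave 0 calls among the members and 0% of all genes in limma, with no member at an unadjusted p below 0.05 (1.53% of all genes), and AP-2γ gave 0 calls and 0%, with GSR alone at that level (2.63%). Neither limma-voom, edgeR nor DESeq2 called a member for either factor. With AP-2α 26 of 34 members were above 0, at a median of 0.15 against 0.04 for all genes. SRXN1 had a difference of 0.63 ± 0.30 (adjusted p = 1 in limma), and within each arm of HT-1376 and CAL-29 the A library was its highest. In RT-112 SRXN1 was highest in KC of the control arm (76.7 CPM, KA 75.2) and in WA of the WWOX arm (64.0, WK 62.8). WWOX over all lines gave 0 calls and 0% in limma, with GPX2, PRDX5 and TALDO1 at an unadjusted p below 0.05 (12.3% of all genes). Limma-voom and edgeR also called no member, and DESeq2 called GPX2 (1.40, adjusted p = 0.0352).

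The lines differed in many members, as they did in most genes. The number called in limma was 20 of 34 for HT-1376 against RT-112, 21 for CAL-29 against RT-112 and 23 for HT-1376 against CAL-29, where 62.2%, 72.4% and 60.8% of all genes were called. Scaling bears on the direction, since the median of all genes was 0.43, 0.82 and −0.44 in these comparisons and 0.10, 0.17 and −0.11 with TMM. The split of higher and lower members was 13 to 7, 12 to 9 and 11 to 12, where 42.6% and 19.6%, 56.5% and 15.9%, and 18.3% and 42.5% of all genes were higher and lower. With TMM it was 9 to 11, 8 to 12 and 15 to 10. At an unadjusted p below 0.05 there were 22, 21 and 23 members, where 65.8%, 74.2% and 65% of all genes were. No called member changed sign with TMM, and 10 of the 64 calls did not pass.

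GPX2 differed most. It had a median of 671 CPM in RT-112 (608 to 825, n = 6) and of 1.92 CPM in HT-1376 (0.33 to 7.51, n = 6), and in CAL-29 it was 333, 352, 594, 398 and 361 CPM in KK, KA, WK, WA and WC. The difference of HT-1376 from RT-112 was −8.25 ± 0.37 and from CAL-29 −7.30 ± 0.39 (adjusted p = 3.59e-11 and 4.21e-10 in limma), and its libraries overlapped with neither.

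TXNRD1, GCLC, GCLM and GSR had their highest medians in CAL-29, unlike TXN, whose medians were 1582 to 1724 CPM in the 3 lines, and SRXN1, whose highest was in HT-1376. TXNRD1 had a median of 8.36 CPM in RT-112 (4.79 to 14.3) and of 33.3 CPM in HT-1376 (11.7 to 70.6), and in CAL-29 it was 191, 97.8, 65.8, 145 and 45.3 CPM in KK, KA, WK, WA and WC. CAL-29 exceeded RT-112 by 3.50 ± 0.36 (adjusted p = 7.37e-07 in limma), and HT-1376 lay between them and overlapped with both. GCLC was 11.1 to 22.1 CPM in HT-1376 and 5.60 to 11.2 in RT-112. Its CAL-29 values were 184, 65.6, 71.6, 156 and 19.4 CPM in the same order, which put CAL-29 above RT-112 by 3.13 ± 0.43 and HT-1376 below CAL-29 (−2.35 ± 0.43), with adjusted p = 1.09e-05 and 0.000241 in limma. GCLM was 25.6 to 65.9 CPM in CAL-29, 25.3 to 53.5 in HT-1376 and 6.33 to 13.9 in RT-112, with CAL-29 above RT-112 by 2.01 ± 0.25 (adjusted p = 5.35e-06) and no call between HT-1376 and CAL-29. GSR, which recycles glutathione, was 125 to 188 CPM in CAL-29, 38.2 to 65.9 in RT-112 and 25.5 to 52.6 in HT-1376, with HT-1376 below CAL-29 (−2.10 ± 0.16, adjusted p = 3.62e-08). ME1, the cytosolic malic enzyme that supplies NADPH, was 4.54 to 7.73 CPM in HT-1376 and 0.55 to 1.6 in RT-112. In CAL-29 it was 35.9, 18.9, 3.48, 20.6 and 10.2 CPM. It exceeded RT-112 by 2.11 ± 0.36 in HT-1376 and by 3.35 ± 0.39 in CAL-29 (adjusted p = 0.000126 and 2.12e-06 in limma). NFE2L2 was 22.1 to 83.8 CPM in CAL-29, 11.8 to 25.6 in HT-1376 and 10.2 to 14.9 in RT-112, with CAL-29 above RT-112 by 1.86 ± 0.33 (adjusted p = 0.000119) and above HT-1376. KEAP1 was lower in CAL-29 than in either other line (−0.56 ± 0.11 against RT-112, adjusted p = 0.000381 in limma).

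**Figure D4:**
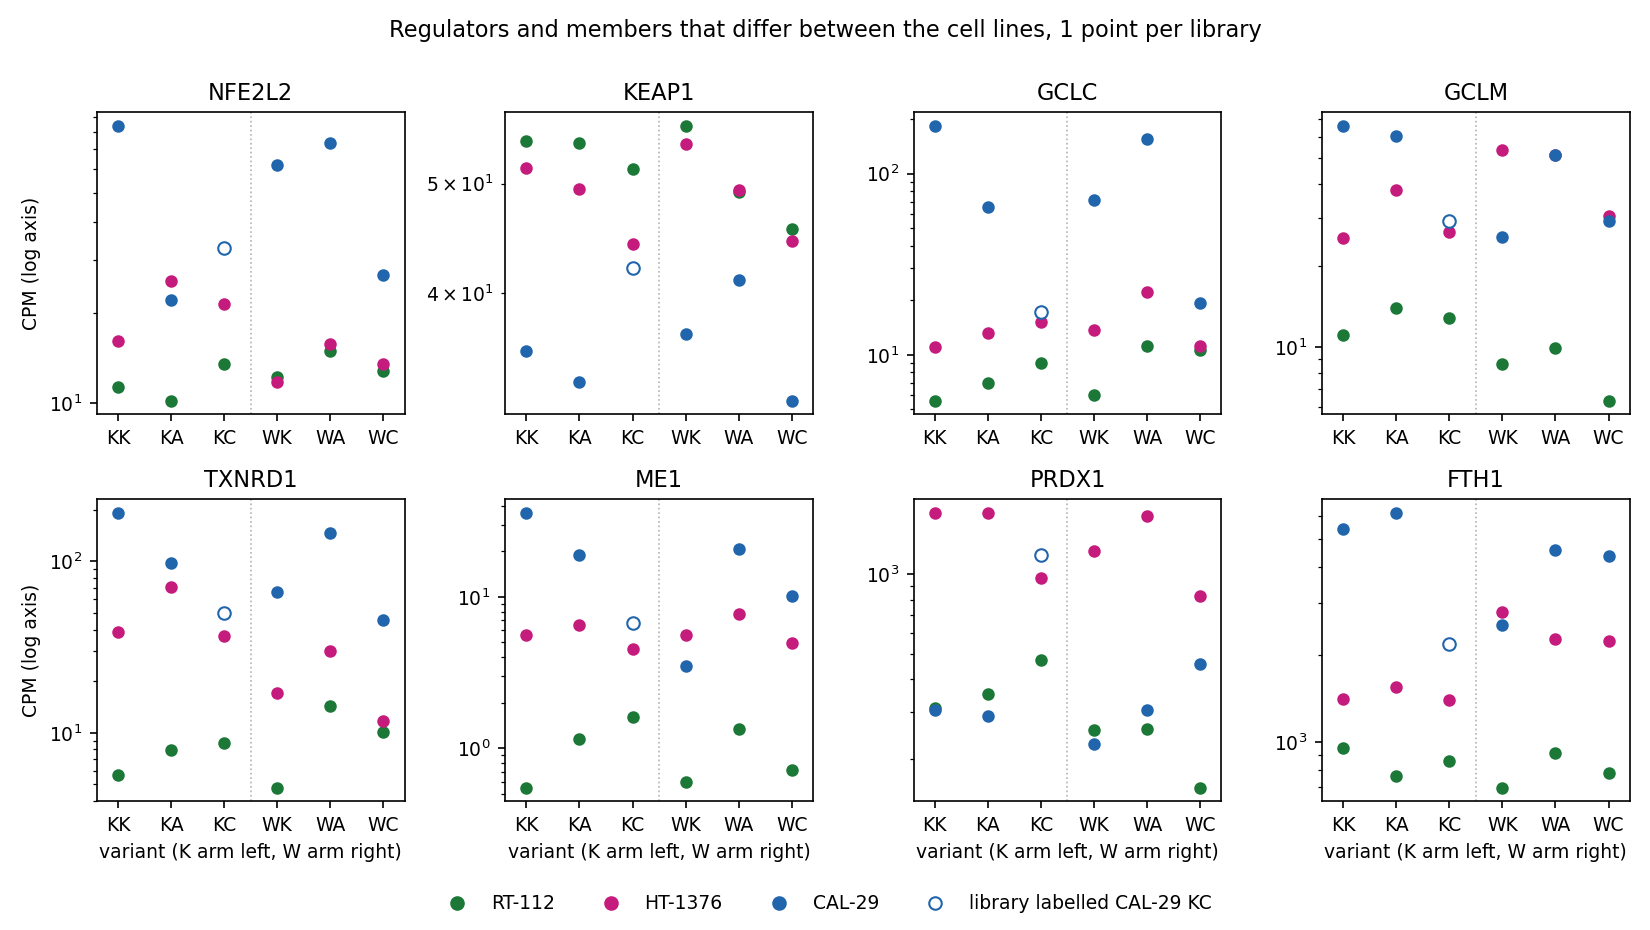
CPM (log axis) of the regulators NFE2L2 and KEAP1 and of 6 members that differ between lines, 1 point per library, coloured by line and with the library labelled CAL-29 KC open. TXNRD1, GCLC and ME1 lie lowest in RT-112, where ME1 is at most 1.6 CPM.

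PRDX1, a cytosolic peroxiredoxin, stood apart in HT-1376. It was 828 to 1701 CPM in HT-1376, 228 to 458 in CAL-29 and 156 to 474 in RT-112, so that HT-1376 was above RT-112 by 2.18 ± 0.24 and above CAL-29 by 2.05 ± 0.26 (adjusted p = 1.62e-06 and 7.99e-06 in limma) with no overlap. FTH1 was 2528 to 6163 CPM in CAL-29, 1396 to 2796 in HT-1376 and 695 to 954 in RT-112, with CAL-29 above RT-112 by 2.41 ± 0.25 (adjusted p = 6.14e-07). FTL was 497 to 2613 CPM in CAL-29, 654 to 1333 in RT-112 and 139 to 448 in HT-1376, with HT-1376 below CAL-29 (−2.17 ± 0.43, adjusted p = 0.000489 in limma). AKR1C1 and AKR1C3 were lower in HT-1376 than in CAL-29 (−2.31 ± 0.86 and −2.11 ± 0.72, adjusted p = 0.0291 and 0.0195 in limma), and AKR1C1 lower than in RT-112 (−2.01 ± 0.81, adjusted p = 0.0411). For both genes the HT-1376 libraries overlapped with the other lines through the WWOX arm, and with TMM AKR1C1 did not pass against CAL-29 (adjusted p = 0.06 in limma). The other members that were called differed by less than 2 on the log2 scale.

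Among the 40 other pathway genes, 26, 32 and 25 were called in the same comparisons (65%, 80% and 62.5%), where 62.2%, 72.4% and 60.8% of all genes were. PTGR1, a reductase of lipid aldehydes and prostaglandins, was 37.0 to 139 CPM in CAL-29, 13.1 to 45.0 in HT-1376 and at most 0.12 in RT-112. SLC7A11, the cystine importer, was 6.41 to 100.01 CPM in CAL-29, 6.68 to 19.7 in HT-1376 and 0.48 to 1.32 in RT-112, with differences from RT-112 of 3.43 ± 0.47 in HT-1376 and 4.0 ± 0.50 in CAL-29 (adjusted p = 1.22e-05 and 4.29e-06 in limma). GPX7, a peroxidase of the endoplasmic reticulum, was at 0 in every library of RT-112 and HT-1376 and 9.73 to 20.5 CPM in CAL-29.

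The core of the antioxidant response element was then looked for near the starts of the members, as TGACNNNGC on either strand. RefSeq promoter windows of the same extent were found for 27 of the 34 members (35 windows). The core was in at least 1 window of 6 genes (22.2%), PGD, GCLM, ME1, TXNRD1, GPX2 and KEAP1, and 16.1% of all 27305 genes had it. A match is a run of letters and not a shown binding site. KEAP1 held it on both strands, as TGACACGGC at 54 bases and, on the opposite strand, TGACTAAGC at 31 bases before its start. Printed are the promoters of TXNRD1, GCLM and ME1, which were called higher in CAL-29 than in RT-112. They span 250 bases before the start in GRCh38.p14, with the core in capitals (as its reverse complement in GCLM). The positions are chr12:104215529-104215778 (plus strand) for TXNRD1, chr1:93909431-93909680 (minus strand) for GCLM and chr6:83431052-83431301 (minus strand) for ME1.
TXNRD1: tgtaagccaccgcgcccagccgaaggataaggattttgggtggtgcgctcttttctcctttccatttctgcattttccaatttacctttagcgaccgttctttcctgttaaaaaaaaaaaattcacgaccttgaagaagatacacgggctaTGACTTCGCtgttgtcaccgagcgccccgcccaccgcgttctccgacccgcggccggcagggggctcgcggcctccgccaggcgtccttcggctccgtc
GCLM: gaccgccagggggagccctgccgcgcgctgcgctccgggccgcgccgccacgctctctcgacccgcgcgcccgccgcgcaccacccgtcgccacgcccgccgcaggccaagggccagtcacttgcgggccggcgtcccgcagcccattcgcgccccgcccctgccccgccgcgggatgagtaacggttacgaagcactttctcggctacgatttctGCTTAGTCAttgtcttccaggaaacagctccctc
ME1: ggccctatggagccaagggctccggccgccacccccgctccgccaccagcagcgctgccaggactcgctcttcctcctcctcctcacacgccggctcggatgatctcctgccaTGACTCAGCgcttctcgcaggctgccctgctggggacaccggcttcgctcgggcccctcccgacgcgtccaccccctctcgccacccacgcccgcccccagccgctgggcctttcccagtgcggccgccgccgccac
The core begins 99 bases before the start in TXNRD1, 34 in GCLM, 137 in ME1 and 122 in GPX2. TXNRD1 holds another match across the start and ME1 another after it, and a further start of TXNRD1 holds another. Of the members called in HT-1376 for WWOX, GPX2 and TXNRD1 hold the core in these windows, 1 higher and 1 lower, and AKR1C1, AKR1C2 and AKR1C3 do not.

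The library labelled CAL-29 KC resembled HT-1376 in part of these genes. Of the 34 members, 21 lay nearer to the mean of HT-1376 and 13 nearer to that of the other CAL-29 libraries. Its value was within the HT-1376 range for 20 members and within the range of the other CAL-29 libraries for 17. Members such as NQO1, CAT, SOD1, TALDO1, TKT and AKR1B1 lay within the CAL-29 range and outside that of HT-1376. GPX2 was 0.30 CPM, against 333 to 594 in the other CAL-29 libraries and 0.33 to 0.50 in the control arm of HT-1376. AKR1C1 was 0.83 CPM and AKR1C2 3.34 CPM, near the 0.85 and 2.17 CPM of HT-1376 KK, and PRDX1 was 1177 CPM, against 228 to 458. Against CAL-29 KK it had 16 members down and 4 up by more than 1, where 31.2% and 12.5% of all genes were. The mean of the members was −1.35, and the median of all genes was −0.42. Values of this library enter no statement on CAL-29 except where it is named.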

How the data were processed

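CAGE libraries of 18 samples were sequenced as 75 nt single-end reads. The authors mapped them to hg38 with BWA, then HISAT2 2.0.5, clustered tags with Paraclu in RECLU, and deposited 1 CPM value per gene and library with 2 decimals. The rule that assigns clusters to genes was not given in the sources used here. Reads were recovered from the steps of the deposited CPM, with 99.97% to 99.99% of values whole within 0.0051 CPM. For RT-112 WC the step was settled by the values of all genes, not by the low values alone.

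Identifiers were joined to GENCODE 44. CPM were analysed as log2(CPM + 0.5) over the 13022 genes that reached 5 CPM in 1 library or more, using limma (version 3.58.1 under R 4.3.3) with a trended variance and Benjamini-Hochberg adjustment. The pseudocount understates changes of low genes. Fits were the 6 variants without a block (18 libraries), cell line plus WWOX plus AP-2 (17), and WWOX and AP-2 within each line (17). The spread of the last was pooled over the lines. The same line pairs the variants by design, and deviations from variant means correlated at 0.036 to 0.881 in CAL-29 (lowest 0.663 without KC), 0.588 to 0.896 in HT-1376 and 0.742 to 0.915 in RT-112.

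The members and lists were chosen with earlier results of these data known. Members were named by role, with full values for those past an adjusted p of 0.05 (beyond 2 on the log2 scale between lines), single-library changes beyond 1 with at least 5 CPM, and 8 genes always. Alternatives were other pseudocounts, filters and scalings, limma-voom, edgeR 4.0.16 and DESeq2 1.42.0 on recovered reads, blocks, and libraries left out. Fits were tested on simulated data. The ± values are standard errors from limma and measure the spread between libraries, whereas the floors cover counting error only.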

Additional observations from a re-analysis of the deposited data

Results flagged for a closer look

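The WWOX difference varied among the 3 cell lines for 6 members in limma, with adjusted p = 0.0128 for AKR1C2, 0.0198 for SRXN1, 0.0243 for GPX2, 0.0314 for FTL, 0.0323 for AKR1C1 and 0.0368 for TXN. AKR1C2, AKR1C1, SRXN1, TXN and FTL had a positive difference in HT-1376 and a negative one in CAL-29, and GPX2 was positive in all 3 lines, at 2.61 in HT-1376.

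In 5 of 102 sets of libraries (34 members in 3 lines) the highest or lowest library stood apart from the rest of its line by more than Dixon's 95% critical value, which chance alone exceeds in about 1 of 20 sets. In RT-112 the WC library was the lowest for GSR (38.2 CPM, next 53.8 CPM), PGD (123 CPM, next 185 CPM), AKR1C1 (19.8 CPM, next 59.5 CPM) and AKR1C2 (39.4 CPM, next 88.0 CPM). In CAL-29 the WC library was the highest for AKR1B10 (8.49 CPM, next 1.2 CPM). AKR1B10 passed the filter on low values only through that library, so its place here follows from how it entered the list.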

How the results depend on the processing

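Of 1478 values recomputed under 28 alternatives, 1292 kept their direction and their side of the threshold or stayed within the spread. Most of these were single members compared between lines (907). In the WWOX and AP-2 fits, 108 single-member values stayed and 45 no longer passed. The count of members called in those fits stayed in 76 cases and moved in 20. The cause of the changes was not tested. The within-line fits pool their spread over the lines, so libraries of 1 line bear on the calls of another. The mean HT-1376 difference of the members was 0.58 in the main fit, with all 18 libraries and without all CAL-29 libraries. In HT-1376, the 10 members called for WWOX (9.75% of all genes) were 16 with DESeq2 (13.7%), 1 with all 18 libraries (AKR1C2; 1.08%), 3 to 4 with 1 second transduction left out (3.13% to 3.96%) and 14 without all CAL-29 libraries (26.4%), an alternative chosen after seeing the data. In CAL-29, the 1 call was 0 with a pseudocount of 0.05 CPM, with the filter of 3 libraries, with limma-voom and with edgeR, 2 without a filter (SRXN1 and FTL), 4 with DESeq2 (HMOX1, OSGIN1, SRXN1 and FTL) and 0 to 1 with 1 second transduction left out (ME1, from 1 pair). For the difference between lines, the 6 calls (2.9% of all genes) were 10 with quantile normalization (3.93%), 15 with DESeq2 (8.47%), 0 with all 18 libraries (0.0538%) and 0 with each second transduction left out (0% to 0.108%). WWOX over all lines had 1 call with DESeq2. The cell line as a block gave no call in the comparisons with KK, and the mean change of KC/KK (−0.31) was −0.21 with TMM, −0.18 without the library labelled CAL-29 KC, −0.0106 with the block and without that library, −0.19 with edgeR and the block, and −0.60 to 0.21 with 1 cell line left out. The −0.18 sets KC of RT-112 and HT-1376 against KK of all lines without a block, so it also holds a difference between lines. Within RT-112 and HT-1376 the mean change of KC against KK was 0.14 and 0.28. The replicate block changed no other call. Signs turned for AKR1B10, CAL-29 against RT-112, with quantile normalization (−0.17), for TALDO1, HT-1376 against RT-112, with limma-voom (−0.0009), edgeR (−0.0002) and DESeq2 (−0.0357), and for NQO1, CAL-29 against RT-112, with limma-voom (−0.0059) and DESeq2 (−0.0752). Between lines, 108 of the values of single members recomputed no longer passed.

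With 1 library per variant and line, differences within a line rest on 3 pairs (2 in CAL-29). Members near the floor of 0.158 to 0.213 CPM, such as AKR1B10, cannot show a decrease at this depth.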
